A study of Mus musculus with 6 samples.

Results

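The genes described are 10 mouse leukocyte chemoattractant receptors, chosen by name from the deposited table of normalised read counts: Fpr1, Fpr2, C5ar1, C3ar1, Cxcr2, Cxcr4, Ccr1, Ccr2, Ltb4r1 and Ptafr. All 10 were among the 15035 genes of the table, and 9 of them were among the 11588 genes tested. The cells were BALB/c mouse bone marrow cells made leukemic by retroviral expression of mutant CSF3R, a cytokine receptor that drives granulocyte production, together with mutant CEBPA, a myeloid transcription factor, and both groups carried these transgenes. Control cells received DMSO, the solvent, and treated cells 4 nM GSK-LSD1, which inhibits the lysine demethylase LSD1, each for 48 h in culture medium with serum. There were 3 libraries in each group. Whether the 3 libraries trace back to different cultures, animals or transductions is not stated in the labels, so the p-values rest on a spread between samples that could be purely technical.

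Chemoattractant receptors are G protein-coupled receptors through which leukocytes sense a gradient of a ligand and migrate along it. They couple mainly to Gi proteins, whose beta-gamma subunits activate phosphoinositide 3-kinase gamma and phospholipase C beta, and they are switched off by receptor kinases, arrestins and RGS proteins. Formyl peptide receptors sense bacterial and mitochondrial peptides, C5ar1 and C3ar1 sense the complement fragments C5a and C3a, Ltb4r1 and Ptafr sense the lipids leukotriene B4 and platelet-activating factor, and the others sense chemokines. In bone marrow, Cxcr4 retains myeloid cells through its ligand CXCL12, Cxcr2 promotes the release of neutrophils and Ccr2 that of monocytes.

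The receptors at which bacterial peptides, complement C5a, platelet-activating factor and CXCR2 chemokines act rose most with GSK-LSD1, each more than 4-fold, but all except Cxcr2 started from very low levels. Cxcr4 and Ccr2, both already well expressed, rose 1.45-fold and 1.83-fold. Ccr1 and Ltb4r1 did not pass the test, and C3ar1 was too low to be tested. In all, 7 of the 9 tested members were higher and none was lower by limma, also none at an unadjusted p under 0.05, while over all tested genes 20.6% were called higher and 20.5% lower, or 41.1% in either direction. The groups did not overlap, with GSK-LSD1 above, for 8 of the 10 members and for 24.7% of all tested genes. Of those 7, however, 4 (Fpr1, Fpr2, C5ar1 and Ptafr) reached the minimum value for testing only in the GSK-LSD1 libraries, so that a difference was a condition of their being tested. Of the 5 members at or above the minimum in both groups, 3 rose and 2 did not pass.

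Values are read counts per gene divided by a scaling factor per library, close to 1, so that a value of 10 stands for about 10 reads. Libraries held between 9572638 and 10199533 reads if the smallest value of each stands for 1 read. The labelled cell type was checked against its markers: the pan-leukocyte gene Ptprc (1781 ± 76.0 with DMSO and 2673 ± 87.7 with GSK-LSD1, mean ± SD, n = 3 here and throughout) and the granule enzyme gene Mpo (7390 ± 377 and 8952 ± 164) were expressed, while Kit was low at 29.6 ± 4.82 and 28.1 ± 13.4. Of the 12 markers of the labelled cells 6 rose, 4 fell and 2 did not pass: Cd34 (299 ± 28.5 and 1685 ± 4.38) and Csf3r (106 ± 12.8 and 434 ± 14.6) rose most, and the progenitor gene Ms4a3 (286 ± 10.1 and 129 ± 5.51) and the granule protease genes Elane, Prtn3 and Ctsg fell, by 0.92, 0.67 and 0.47 on the log2 scale. Some mast cell and basophil markers were abundant in both groups, among them Cpa3 (14320 ± 982 and 23028 ± 597) and Gata2 (5786 ± 106 and 6415 ± 121). Others were scarce, such as the tryptase gene Tpsab1 (1.64 ± 1.50 and 44.4 ± 0.463), which rose and was tested only through its GSK-LSD1 values. Of 11 tested, 5 rose, 2 fell and 4 did not pass, and the histamine enzyme gene Hdc and the IgE receptor gene Fcer1a fell by 1.15 and 0.35 on the log2 scale. Of 8 tested mature neutrophil markers 7 rose and 1 fell, and their summed value, over 10 genes in the table, went from between 4838 and 5323 to between 22035 and 22763. Mmp8 (2376 ± 61.2 and 15579 ± 296) made up most of that sum with GSK-LSD1, and Ngp (46.5 ± 11.7 and 18.9 ± 4.63) was the 1 that fell. Of 9 tested monocyte and macrophage markers 9 rose, with a summed value over 11 genes of 13076 to 13857 and 16201 to 16357, most of it F13a1. The erythroid markers fell, 5 of 5 tested, with a summed value of 198 to 249 and then 42.8 to 65.2, those of B cells summed to between 2.07 and 6.12 and those of dendritic cells to between 7.93 and 25.5 over the 6 libraries, and both tested nuclear RNAs kept as a sign of RNA quality, Malat1 and Neat1, rose by 0.80 and 0.50 on the log2 scale. In the DMSO libraries the neutrophil marker Retnlg was listed at 0, and the monocyte marker Ly6c2 was low in both groups (6.92 ± 4.33 and 7.35 ± 4.74). The marker counts are to be read against the 20.6% higher and 20.5% lower of all tested genes. Receptor genes below are also expressed by mature neutrophils, monocytes and mast cells. The part of these marker changes in the receptor results was not tested, and a different number of cells of a type cannot be told apart from a different amount of RNA per cell in bulk libraries.

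**Figure D1:**
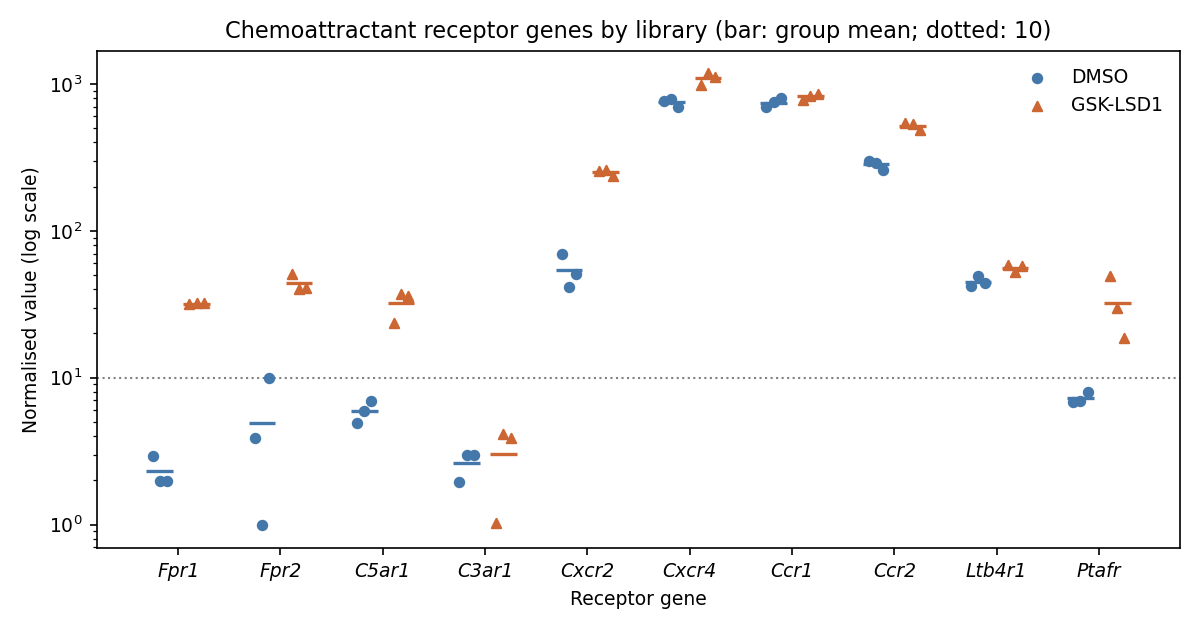
Normalised value of each receptor gene in each library on a log scale, with DMSO libraries as circles, GSK-LSD1 libraries as triangles, horizontal bars at group means and a dotted line at the minimum of 10 used for testing. The groups do not overlap, with GSK-LSD1 above, for 8 of the 10 genes and for 24.7% of all tested genes. Ccr1 and C3ar1 are the exceptions among the 10. Of the 8, Fpr1, Fpr2, C5ar1 and Ptafr reached the minimum only in the GSK-LSD1 libraries.

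The start regions of 4 receptor genes are shown because they carry the contrasts described next: Fpr1 and Fpr2 lie side by side and both rose, Cxcr2 rose from a measurable level, and Ccr1 did not pass the test. Each run is the 250 bases before the RefSeq start site (GRCm38.p6), and capitals mark matches to a PU.1 motif (GAGGAA) or a RUNX motif (TGTGGT) on either strand. The windows are chr17:17883940-17884189 on the minus strand for Fpr1, chr17:17887574-17887823 on the plus strand for Fpr2, chr1:74153744-74153993 on the plus strand for Cxcr2 and chr9:123968693-123968942 on the minus strand for Ccr1.
Fpr1: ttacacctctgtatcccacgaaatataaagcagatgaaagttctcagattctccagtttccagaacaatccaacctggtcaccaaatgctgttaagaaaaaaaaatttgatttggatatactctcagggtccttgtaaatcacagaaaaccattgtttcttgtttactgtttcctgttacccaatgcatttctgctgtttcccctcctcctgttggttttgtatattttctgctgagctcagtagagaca
Fpr2: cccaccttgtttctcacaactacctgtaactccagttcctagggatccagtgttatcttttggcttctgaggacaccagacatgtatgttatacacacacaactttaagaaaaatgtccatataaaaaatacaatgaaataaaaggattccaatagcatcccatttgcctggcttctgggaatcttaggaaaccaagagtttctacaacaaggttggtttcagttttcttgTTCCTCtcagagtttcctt
Cxcr2: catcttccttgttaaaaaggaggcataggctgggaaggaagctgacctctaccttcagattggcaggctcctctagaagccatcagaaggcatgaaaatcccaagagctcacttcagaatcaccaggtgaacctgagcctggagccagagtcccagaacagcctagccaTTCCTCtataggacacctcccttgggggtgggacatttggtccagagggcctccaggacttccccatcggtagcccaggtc
Ccr1: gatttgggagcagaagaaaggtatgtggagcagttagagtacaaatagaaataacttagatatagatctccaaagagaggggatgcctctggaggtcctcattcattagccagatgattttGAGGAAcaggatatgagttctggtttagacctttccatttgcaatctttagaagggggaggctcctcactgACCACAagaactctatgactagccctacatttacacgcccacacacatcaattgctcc

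RefSeq start regions were matched for 10 of the 10 receptors. The PU.1 letters were in 5 of them (Cxcr2, Ptafr, Ccr1, Ltb4r1 and Fpr2) and in 23.3% of 32851 start regions of the same length. The RUNX letters were in 3 (C5ar1, Ccr1 and Ltb4r1) and in 14.0% of all regions. A C/EBP motif (TTGCNNAA) was in 9.56% of all regions and a GFI1 motif (AATCNNNGC) in 8.87%, each on both strands, and in 0 of the 10. None of the 4 motifs overlapped another in these windows. Receptors that rose and receptors that did not pass both had PU.1 letters, and Fpr1, Ccr2 and Cxcr4, which rose, had none of the 4. The windows of Ccr2 (124101933 to 124102182) and C5ar1 (16259339 to 16259588) lie mostly inside the GENCODE genes, which start at 124101950 and 16259540. By that annotation, most of these windows is not upstream sequence. The window of Cxcr4 held 19 CpG dinucleotides, against a median of 6 over all regions and 0 to 5 in the windows of the other receptors.

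Fpr1 and Fpr2 encode the 2 best-known formyl peptide receptors, and they are divergent neighbours on chromosome 17 (Fpr1 at 17876471 to 17883940 and Fpr2 at 17887824 to 17893952, GRCm38, GENCODE), with start sites 3884 bases apart. Fpr1 had values of 2.93, 1.98 and 1.99 in the DMSO libraries and 31.6, 32.1 and 32.1 in the GSK-LSD1 libraries. The groups were far apart and the GSK-LSD1 libraries nearly equal. The difference was 3.33 on the log2(value + 1) scale (SE 0.365, limma adjusted p = 2.18e-09 after Benjamini-Hochberg correction). If the smallest value of each library stands for 1 read, as assumed here and below, Fpr1 had 7 reads in the control group and 95 in the treated group. After scaling this is 13.9-fold (95% exact interval 6.47 to 35.4, for counting error only).

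Fpr2 had values of 3.91, 0.991 and 9.95 with DMSO and 51.0, 40.4 and 40.9 with GSK-LSD1. The DMSO libraries differed widely among themselves but all lay below the treated ones. The log2 difference was 3.24 (SE 0.392, limma adjusted p = 1.98e-08), and it was 2.61 without DMSO replicate 2 and 3.84 without DMSO replicate 3. With a pseudocount of 5 the differences of Fpr1 and Fpr2 were 2.34 and 2.40. The value of Fpr2 is uncertain because of its copies: of the 1295 stretches of 50 bases in its GENCODE transcripts, 31.5% also occurred in transcripts of Fpr3, of Gm5966 or, for 1 stretch, of Fpr1. Fpr3, which shares 48 exon bases with Fpr2 on the same strand, had no row in the deposited table, and Gm5966 was not analysed here. Whether reads of either were counted under Fpr2 was not tested. For Fpr1 this share was 0.0784%.

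C5ar1 (chromosome 7, 16246743 to 16259540), the receptor through which C5a recruits and activates neutrophils, had values of 4.88, 5.95 and 6.97 with DMSO and 23.5, 37.3 and 36.0 with GSK-LSD1. GSK-LSD1 replicate 1 was the lowest of its group and still above all DMSO libraries. The log2 difference was 2.24 (SE 0.315, limma adjusted p = 3.79e-07). C5ar2, a second C5a receptor that does not couple to G proteins and lies 15.4 kb from C5ar1 between start sites, was listed at 0 in the 3 DMSO libraries and at 1.02, 5.18 and 1.95 with GSK-LSD1, too low to be tested. The other tested protein-coding genes with start sites within 250 kb of C5ar1 numbered 10, of which none rose, 1 fell and 9 did not pass. Over all tested genes, 20.6% were higher and 20.5% lower. C3ar1 (chromosome 6, 122847138 to 122856161), the receptor for C3a, had values of 1.95, 2.97 and 2.99 with DMSO and 1.02, 4.14 and 3.89 with GSK-LSD1. Its groups overlapped and amounted to 8 and 9 reads. The counting interval of the ratio ran from 0.394 to 3.42. A difference within that range could not be told from none at this depth.

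Ptafr (chromosome 4, 132564067 to 132582683), the platelet-activating factor receptor, had values of 6.84, 6.94 and 7.96 with DMSO and 49.0, 30.0 and 18.5 with GSK-LSD1. The treated libraries had a coefficient of variation of 47.4%, above that of every other tested receptor in that group, and all exceeded the DMSO libraries. Ptafr rose by 1.92 on the log2 scale (SE 0.324, limma adjusted p = 9.25e-06), and by between 1.58 and 2.26 when single libraries were left out. Ltb4r1 (chromosome 14, 55765962 to 55768494), the high-affinity leukotriene B4 receptor, had values of 42.0, 49.5 and 43.8 with DMSO and 58.2, 52.8 and 57.4 with GSK-LSD1. The groups did not overlap, as was the case for 49.5% of all tested genes, but the difference of 0.31 had a 95% interval of -0.04 to 0.66 and did not pass (adjusted p = 0.152 by limma). With quantile scaling it was 0.09. The low-affinity receptor gene Ltb4r2 was at 2.30 ± 0.545 and 4.42 ± 2.67, below the minimum.

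Cxcr2 (chromosome 1, 74153989 to 74161246), the neutrophil receptor for CXCL1, CXCL2 and related chemokines, had values of 69.3, 41.6 and 50.8 with DMSO and 257, 259 and 237 with GSK-LSD1. The treated libraries were close to each other and far above every DMSO library. The log2 difference was 2.23 (SE 0.139, limma adjusted p = 1.01e-15). Cxcr1, whose product binds some of the same chemokines and whose start site is 40.6 kb away, changed the other way: it had values of 104, 125 and 128 with DMSO and 75.5, 73.5 and 79.8 with GSK-LSD1. Cxcr1 fell by 0.63 on the log2 scale (SE 0.133, limma adjusted p = 0.000222). The ratio of Cxcr2 to Cxcr1 within a library went from 0.466 ± 0.179 to 3.30 ± 0.294, with no overlap (exact permutation test, two-sided p = 0.1, the smallest that 3 against 3 allows). Because both genes already separated the groups, in opposite directions, the ratio had to do so and adds no support of its own. Of 8 tested genes within 250 kb of Cxcr2, Slc11a1, a phagosomal metal transporter gene, was the 1 that rose (6.26 ± 0.592 to 62.2 ± 1.68, and so tested only through its GSK-LSD1 values), Cxcr1 was the 1 that fell and 6 did not pass. The shares over all tested genes were 20.6% higher and 20.5% lower.

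Cxcr4 (chromosome 1, 128588199 to 128592293), which holds progenitors and neutrophils in the marrow, had values of 764, 787 and 701 with DMSO and 986, 1179 and 1106 with GSK-LSD1. Every treated library was above every control library. The log2 difference was 0.54 (SE 0.0619, limma adjusted p = 7.20e-09). Both tested genes within 250 kb, the replication gene Mcm6 and the aspartyl-tRNA synthetase gene Dars, fell, with log2 differences of -0.22 and -0.16. So did 20.5% of all tested genes. The ratio of Cxcr2 to Cxcr4 values went from 0.0720 ± 0.0190 to 0.231 ± 0.0257, without overlap (exact permutation test, two-sided p = 0.1, again the smallest possible). Given the ranges of both genes, this ratio too had to separate the groups and adds no support of its own.

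Ccr1 and Ccr2 belong to the CC chemokine receptor cluster on chromosome 9. Ccr1 (123962124 to 123968692), a receptor for CCL3, CCL6 and CCL9 on neutrophils, monocytes and basophils, had values of 694, 748 and 795 with DMSO and 778, 832 and 859 with GSK-LSD1. The groups overlapped, and the difference of 0.14 on the log2 scale (95% interval 0.02 to 0.27) did not pass (adjusted p = 0.0570 by limma). That result lies at the threshold: the adjusted p was 0.0449 with upper quartile scaling, 0.0140 when DMSO replicate 3 was left out and 0.0383 when GSK-LSD1 replicate 1 was left out. Ccr2 (124101950 to 124113557), the receptor for CCL2 on monocytes, had values of 301, 289 and 261 with DMSO and 541, 535 and 484 with GSK-LSD1. These did not overlap, and Ccr2 rose by 0.87 on the log2 scale (SE 0.0760, limma adjusted p = 9.00e-12). Of the stretches of 50 bases of Ccr2, 1.91% occurred in transcripts of any other gene.

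The ratio of Ccr2 to Ccr1 within a library went from 0.383 ± 0.0528 to 0.634 ± 0.0664, without overlap (exact permutation test, two-sided p = 0.1, the smallest possible). The ranges of both genes already fixed that separation, so the ratio adds no support of its own. Ccr3, an eotaxin receptor whose gene lies between Ccr1 and Ccr2, was at 15.8 ± 4.37 and 20.1 ± 2.81 and did not pass. Xcr1 and Cxcr6 in the same cluster were near 0 in both groups.

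**Figure D2:**
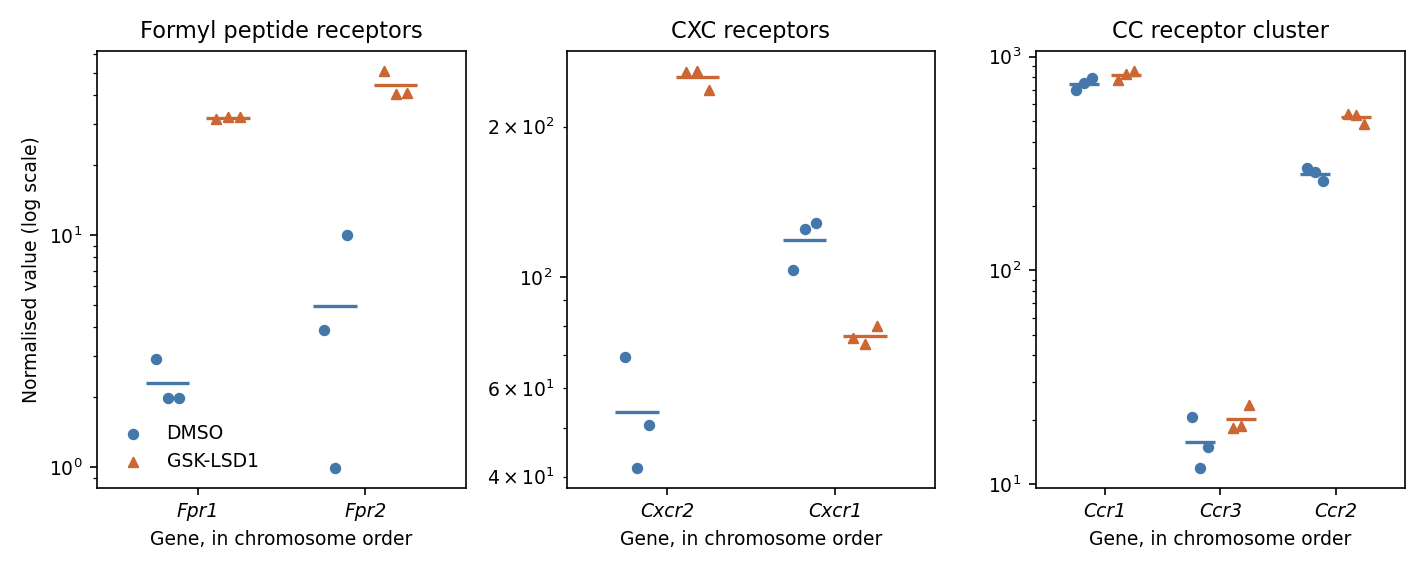
Normalised values by library on log scales for 3 groups of neighbouring receptor genes in chromosome order, with DMSO libraries as circles, GSK-LSD1 libraries as triangles and bars at group means. Fpr1 and Fpr2 are both higher with GSK-LSD1, Cxcr2 is higher and Cxcr1 lower, and Ccr2 is higher while the groups of Ccr1 and of Ccr3 overlap.

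Levels of different genes were compared per kilobase of merged GENCODE exon. On this scale Cxcr4 was the highest receptor in both groups (415 ± 24.6 with DMSO and 603 ± 54.0 with GSK-LSD1), followed by Ccr1 (263 ± 17.8 and 291 ± 14.5). With DMSO the next were Ccr2 (42.0 ± 3.05), Ltb4r1 (32.4 ± 2.83) and Cxcr2 (17.7 ± 4.63), and the other 5 were at or under 3.82. With GSK-LSD1 Cxcr2 (82.3 ± 4.07) and Ccr2 (76.9 ± 4.65) came after Ccr1 and overlapped each other. The order of Cxcr2 and Ccr2 depends on their annotated lengths, 3048 and 6760 bases. Their undivided values with GSK-LSD1 were 251 ± 12.4 and 520 ± 31.4. Next were Ltb4r1 (40.3 ± 2.09) and Fpr2 (34.0 ± 4.63), which also overlapped, and then Fpr1 (24.1 ± 0.208). C5ar1 (12.5 ± 2.97), Ptafr (8.93 ± 4.23) and C3ar1 (0.701 ± 0.403) were the lowest with GSK-LSD1. Cxcr2 thus went from 2.27% to 7.01% of the summed level per kilobase of the 10 receptors, Ccr1 from 33.7% to 24.8%, and Cxcr4 was 53.2% and 51.4%. The summed value of the 10 genes, not divided by length, was 1881 to 1934 in the DMSO libraries and 2776 to 3002 in the GSK-LSD1 libraries.

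**Figure D3:**
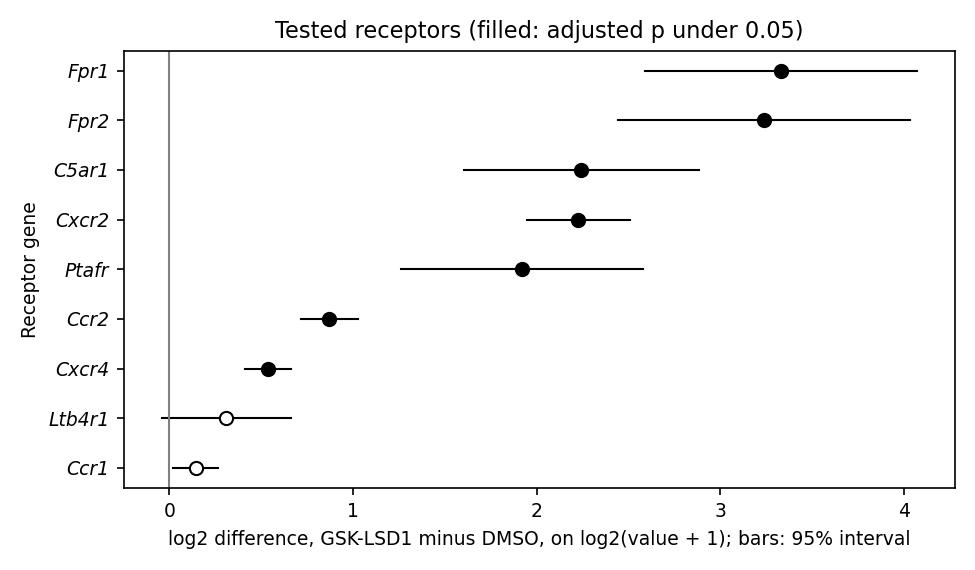
Difference between GSK-LSD1 and DMSO on the log2(value + 1) scale for the 9 tested receptors, with 95% intervals from limma. Filled circles mark the 7 with an adjusted p under 0.05, and Ltb4r1 and Ccr1 are the open circles. Of the 7, Fpr1, Fpr2, C5ar1 and Ptafr reached the minimum only in the GSK-LSD1 libraries.

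By Euclidean distance in log2(value + 1) over the 6 libraries, the genes most like Fpr1 in level and difference were Ugt1a6a (distance 1.05), Zc3h12d (1.14) and Rin2 (1.26). Those most like Fpr2 were Cd22 (1.50), Icos (1.62) and Sirpb1a (1.73), and those most like C5ar1 were Myo18b (0.744), Ptk7 (0.816) and Lrrc75b (0.868). All 9 had a mean under 10 with DMSO, as did Fpr1, Fpr2 and C5ar1. Among tested genes with a DMSO mean under 10, 68.0% were called higher, against 19.6% of those with a mean of at least 10. The 68.0% partly follows from the minimum for testing: 142 tested genes, all under 10 in every DMSO library, reached it only in the GSK-LSD1 libraries. It is therefore not a measure of how low genes respond.

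Other receptors that position leukocytes had calls in both directions, in shares to be read against the 20.6% higher and 20.5% lower of all tested genes. Of 38 listed, 32 were in the table and 21 were tested, of which 6 rose, 4 fell and 11 did not pass, with a median log2 difference of 0.21 against -0.01 over all tested genes. Of the 6 that rose, 4 (Ccr10, S1pr1, Gpr35 and Ackr3) reached the minimum only in the GSK-LSD1 libraries, so that for them too a difference was a condition of being tested, and they also enter the median. Ccr10, a receptor best known from skin-homing T cells and plasma cells, rose from 0.977, 6.94 and 3.98 to 57.1, 36.2 and 50.6. S1pr1, which directs lymphocytes out of tissues, Gpr35 and the scavenging CXCL12 receptor gene Ackr3 rose by 1.46, 1.42 and 1.34 on the log2 scale, from means between 4.60 and 8.88. S1pr3 and Cysltr2, a leukotriene receptor gene, fell besides Cxcr1, with log2 differences of -0.24 and -1.01. The call of Cysltr2 was lost in 5 of the 6 fits that left out a library, and that of S1pr3 without DMSO replicate 1 (adjusted p = 0.0604 by limma).

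Among ligands of the 10 receptors and the enzymes that make their lipid ligands, 26 of 30 were in the table and 19 were tested, and 9 rose, 5 fell and 5 did not pass (median log2 difference 0.07). For comparison, 20.6% of all tested genes were higher and 20.5% lower. Of these 19, 2 (Ccl3 and Cxcl2, both among the 9) were tested only through their GSK-LSD1 values. The C3 gene, the source of C3a, rose from 142 ± 3.60 to 304 ± 31.1. Hc, which encodes complement C5, had values of 10.7, 9.91 and 16.9 with DMSO and 0, 2.07 and 0 with GSK-LSD1 and did not reach the minimum in enough libraries. Anxa1, whose product is a ligand of formyl peptide receptors, rose from 1181 ± 90.9 to 2034 ± 33.6, and Saa3, a serum amyloid gene, from 33.9 ± 4.67 to 130 ± 1.51. Ccl3, a ligand of Ccr1, rose from 4.28 ± 1.54 to 16.1 ± 1.66.

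The lipid enzymes moved in opposite directions. Lpcat2, which makes platelet-activating factor, rose from 49.4 ± 9.57 to 121 ± 3.35, and Pla2g7, whose product degrades it, from 124 ± 6.28 to 522 ± 39.9. Alox5 and Lta4h, which act in turn to make leukotriene B4, fell by 0.31 and 0.29 on the log2 scale, and Pla2g4a, which releases arachidonic acid, fell by 0.52. Alox5ap, the 5-lipoxygenase activating protein gene, rose by 0.47. Mif, a noncanonical ligand of Cxcr2 and Cxcr4, fell from 4600 ± 368 to 3225 ± 103.

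Of 22 tested genes for Gi and other G proteins and their direct effectors, 11 rose, 3 fell and 8 did not pass (median log2 difference 0.14). Among all tested genes, 20.6% were higher and 20.5% lower. The Gi alpha genes Gnai2 and Gnai3, the highest of the list by value, had differences of 0.09 and -0.02 and did not pass. Gnaq, which encodes the alpha subunit of Gq, rose from 46.8 ± 9.37 to 186 ± 17.1, and the protein kinase C gene Prkcb from 525 ± 24.1 to 1465 ± 111. Gng2 rose by 0.92, and Pik3r5, a regulatory subunit gene of phosphoinositide 3-kinase gamma, by 1.02. Gng12, Gna15 and Akt1 fell by 0.30, 0.26 and 0.12, and the call of Akt1 was lost in 5 alternatives.

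Of 14 tested receptor kinase, arrestin and RGS genes, 7 rose, 2 fell and 5 did not pass (median 0.35), beside 20.6% higher and 20.5% lower over all tested genes. Adrbk2, the gene of receptor kinase GRK3, rose from 755 ± 2.30 to 1415 ± 45.0, whereas Adrbk1, that of GRK2, had a difference of 0.04 and did not pass. The arrestin genes diverged: Arrb2 rose by 0.46, from 1493 ± 83.4 to 2046 ± 58.8, and Arrb1 fell by 0.59, from 628 ± 35.9 to 417 ± 8.53. Rgs3 and Rgs18 rose by 0.86 and 0.39. Grk6 fell by 0.13, a call lost in 8 of the 14 alternatives.

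Of 36 tested genes of Rac signalling, actin and adhesion, 15 rose, 3 fell and 18 did not pass (median 0.05), beside 20.6% higher and 20.5% lower over all tested genes. The integrin gene Itgam rose from 177 ± 16.0 to 625 ± 31.7, the Src family kinase gene Fgr from 59.9 ± 5.86 to 177 ± 12.1 and Arhgap25 from 176 ± 22.3 to 375 ± 6.61. Rac2 was 8046 ± 477 and 8011 ± 204 and did not pass, while the actin regulators Wipf1, Pfn1 and Cfl1 fell by 0.32, 0.18 and 0.16. Cfl1 (21063 ± 602 with DMSO) and Pfn1 (13501 ± 663) were more abundant than Rac2. The call of Pfn1 was lost with quantile scaling (limma adjusted p = 0.219) and that of Cfl1 without GSK-LSD1 replicate 1 (limma adjusted p = 0.0697).

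**Figure D4:**
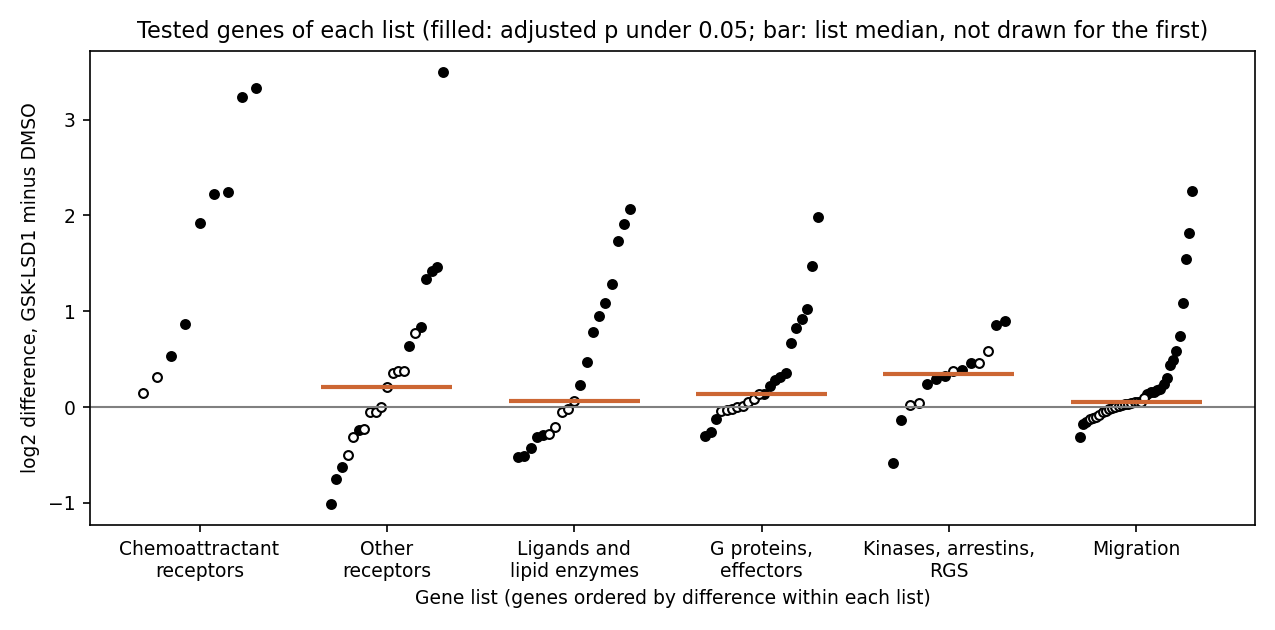
Difference between GSK-LSD1 and DMSO on the log2(value + 1) scale for each tested gene of the receptor list and 5 related lists, ordered within a list, with filled points for an adjusted p under 0.05 and bars at the medians of the related lists. The 9 tested receptors lie above 0, but 4 of them (Fpr1, Fpr2, C5ar1 and Ptafr) reached the minimum only in the GSK-LSD1 libraries. For these 4 a difference was a condition of being tested. Each of the other lists has genes on both sides, with medians between 0.05 and 0.35.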

How the data were processed

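The deposited file held 1 normalised signal value per gene symbol for each of the 6 libraries. From the values, the authors divided read counts by 1 factor per library: 100% of values were whole multiples of the library's smallest value, within 0.1, and that value lay between 0.973 and 1.04. The submitters' processing notes list STAR and DESeq2, with the mouse builds mm10 and GRCm38, but give neither versions nor roles. For counter, annotation and strand setting, the answer is not given in the sources used here. Of the 15035 rows, 22 carried dates in place of symbols and stayed in the tests unnamed.

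Genes with a value of at least 10 in at least 3 libraries entered a two-sided limma fit (version 3.58.1, R 4.3.3; log2(value + 1), variance trend, no replicate block). Benjamini-Hochberg correction covered all 11588 genes, and 0.05 was the threshold. Low genes change by more than this scale shows. Replicates differed by more than sampling noise (chi-square per degree of freedom 1.57 to 3.51 within groups, 17.7 to 20.1 between).

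Members and lists were chosen with earlier results of these data known. Named were all 10 members, up to 4 genes per direction from each related list by size of change, genes described as ligand, neighbour or paralog of a member, up to 3 markers per cell type, and the 3 nearest genes of the 3 members with the largest differences. Gnai2, Gnai3, Adrbk1, Rac2, Lta4h, Alox5ap, Cxcl2, Cd34, Csf3r, Ms4a3, Elane, Prtn3, Ctsg, Hdc and Fcer1a were outside this rule or past its limit, and were chosen after their values were seen. Promoter windows and motifs were searched with Python 3.11.15. Some genes that the rule names are not reported here.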

Additional observations from a re-analysis of the deposited data

How the results depend on the processing

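The 9 tested members kept their direction, and the 7 calls held, in every alternative run in which the gene was tested (14 settings, and 13 for Fpr1, Fpr2, C5ar1 and Ptafr). Ccr1 passed with upper quartile scaling (0.15, adjusted p = 0.0449) and with the replicate block (0.14, adjusted p = 0.0478), and ranged from 0.0927 to 0.191 (adjusted p 0.261 to 0.0140, limma) when single libraries were left out. The count of members called higher was 7 to 8 without single libraries, and 3 at a mean value of at least 50, which leaves out Fpr1, Fpr2, C5ar1 and Ptafr by construction. Over all genes, 2389 were higher and 2373 lower, 2094 and 2618 with quantile scaling, and 2345 and 2316 with the replicate block. No pairing by replicate number was seen: deviations of same-numbered libraries from their group means correlated at -0.0241, -0.0276 and -0.00771. A correlation over all tested genes, low ones included, cannot exclude such a pairing. The planned count models were not run, since the steps of DMSO replicates 2 and 3 were too close to 1 to meet the criterion for recovered reads. Depth limits C3ar1, at 8 and 9 reads per group, and the 4 members at under 25 reads over the DMSO libraries.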
